A study of Homo sapiens with 4 samples.

Results

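The kinetochore is the protein assembly that joins each chromosome to the mitotic spindle, and the centromere is the stretch of chromatin on which it is built. Messenger RNAs of this machinery were read in MCF10A cells, an immortalised, non-tumorigenic human mammary epithelial line. The genes were taken by name: every symbol that begins with CENP and a further letter, plus 25 named subunits of the outer kinetochore, the spindle checkpoint, the chromosomal passenger complex and the shugoshins. This found 40 of the 18840 genes in the table, 18 through the CENP pattern and 22 through their names. The older symbols CASC5, SGOL1 and SGOL2 had no row, while the same genes stood in the table under their current symbols KNL1, SGO1 and SGO2 and are described at the end of the outer kinetochore account. CENPJ, CENPS, CENPU, CENPW and AURKB are not analysed here.

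Kinetochores are layered. At the base, nucleosomes that carry the histone variant CENP-A are read by the constitutive centromere-associated network (CCAN), a group of subunits that stays on the centromere through the cell cycle. On it stands the outer layer, made of KNL1, the MIS12 complex and the NDC80 complex, which grips microtubules, and around that the checkpoint proteins that delay anaphase until every chromosome is attached. Many of these genes are transcribed mainly in late S phase, G2 and mitosis, so their mRNA in a culture is known to follow the share of cells that are dividing.

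All 4 cultures were MCF10A cells with a stably integrated pBabe retroviral construct, grown in a DMEM/F12 medium supplemented with EGF, insulin, hydrocortisone, cholera toxin and horse serum. The constructs were the empty pBabe vector, pBabe-GFP, pBabe-miR-105, which encodes a microRNA, and pBabe-MYC, which encodes a transcription factor of growth genes. Each construct had 1 poly(A) RNA library, so no group had a replicate and no difference below is a test of a condition. The labels do not say whether a culture was a pool of transduced cells or 1 clone.

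The vector, GFP, miR-105 and MYC libraries held 9138429, 14025115, 6859698 and 9795159 recovered reads. Levels are given as counts scaled to a total of 1000000 reads (CPM) after TMM scaling, a scaling that sets the bulk of genes equal between libraries, and 1 read was worth 0.0722 to 0.157 CPM. MYC mRNA, the transcript named by one of the labels, stood at 207 CPM in vector, 198.1 in GFP, 463.5 in miR-105 and 231.7 in MYC, so it was highest outside the library that carries its name and that library is called the library labelled MYC. Of the 8 mammary epithelial markers, 7 were measured, and they summed to 9906, 8038, 6225 and 6599 CPM in the order vector, GFP, miR-105, MYC. In that order the markers of other cells summed to 215.7, 210.9, 117.6 and 160.6 CPM for fibroblasts, 96, 99.3, 43 and 29.8 for leukocytes, 46.8, 49.6, 3.61 and 92.2 for endothelium and 18.8, 21.5, 11.1 and 15.4 for the germ line. Of the lists for other cells, in the order given, 3 of 8, 4 of 7, 2 of 5 and 3 of 6 genes had no read in the library labelled miR-105, and COL3A1, DAZL and SYCP1 had none in any library. In RNA from whole cultures, fewer cells of a type and less RNA per cell cannot be told apart.

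Kinetochore and centromere mRNAs were far more abundant in the library labelled miR-105 than in the other 3. Their summed level was 701 CPM in vector, 624.2 in GFP, 3344 in miR-105 and 783.2 in MYC. The median member stood at 6.92, 7.26, 51.1 and 9.53 CPM in the same order. In the library labelled miR-105, 34 of the 40 members were above 25 CPM, against 7 in vector, 6 in GFP and 8 in MYC. The highest of a member's 4 values lay in that library for 35 members, in the library labelled MYC for 4 and in the vector library for 1. The shares of all genes for these counts are not given here. The median of the 12484 genes that passed the filter below was 31 CPM in vector, 32.2 in GFP, 35 in miR-105 and 32.7 in MYC. Every member passed the filter of an average level of 1 CPM or more, which 12484 genes passed. SPC25 and SKA1 passed it only through the miR-105 library, where they were highest. Both are among the members counted as higher there below, and the NDC80 and SKA medians include them. Dropping the filter could not change a count of members, since all of them passed it. In the same library 4 of the 5 marker sums given above, all but that of leukocytes, were at their lowest. The epithelial sum rested largely on KRT17 in the vector and GFP libraries, and its genes did not move together. Among single markers, chosen here after their values were seen, the keratin KRT17 stood at 6927 CPM in vector, 5131 in GFP, 766.2 in miR-105 and 1777 in MYC, and in that order the keratin KRT14 stood at 510.8, 386.8, 123.9 and 233.5 CPM. The fibroblast proteoglycan DCN stood at 116.8, 69.4, 16 and 140.6 CPM, and the endothelial receptor KDR at 32.6, 33, 1.73 and 88.9. Neither stands for its list. The fibroblast marker FAP stood at 85, 126.1, 90.2 and 2.56 CPM, and COL1A2 had 1, 1, 10 and 0 reads. The endothelial marker PECAM1 stood at 12.8, 15.9, 1.73 and 2.46 CPM, low under the MYC label where KDR was highest. Against KRT17 and KRT14, other keratins went the other way, with KRT5 at 1757, 1614, 4654 and 4138 CPM and KRT18 at 122.2, 86.5, 240.4 and 134.5. The epithelial marker EPCAM stood at 33.5, 36.8, 66.5 and 55.9 CPM, and the epithelial cadherin CDH1 at 548.6, 767.9, 367.8 and 182.8. The part of these marker differences in the members' levels was not tested.

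**Figure D1:**
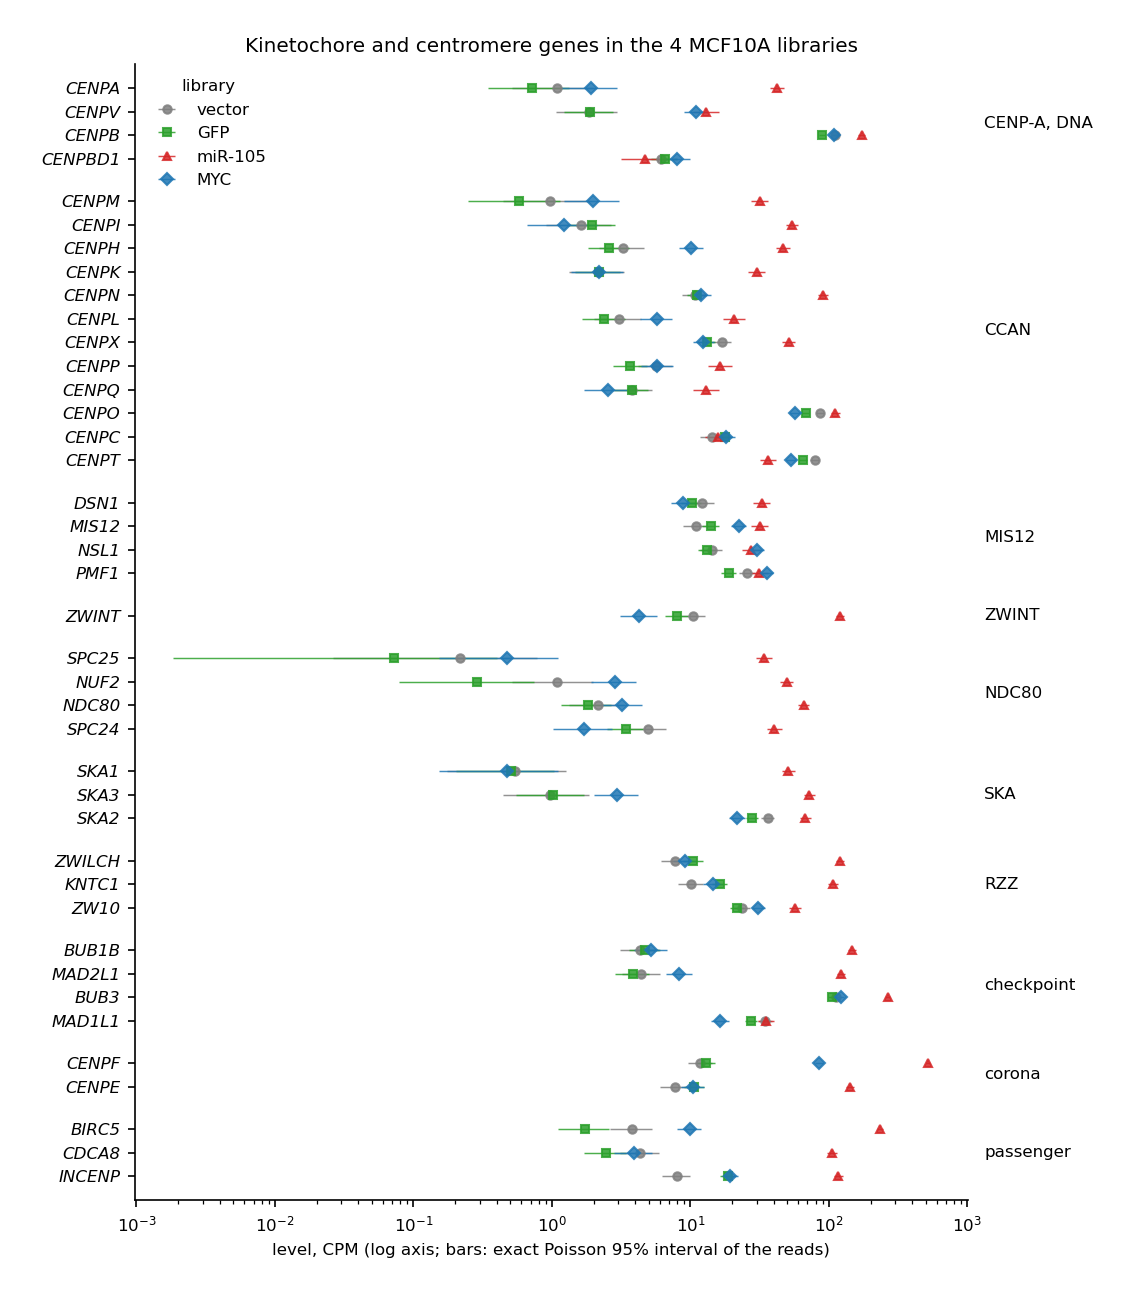
Level of each of the 40 genes in the 4 libraries, grouped by complex, in CPM on a log axis. Points are single libraries and bars are exact Poisson 95% intervals of the reads; the miR-105 triangles lie to the right of the other symbols for 35 genes, with CENPT, CENPC and CENPBD1 among the exceptions.

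A gene was counted as higher when its CPM was 2-fold or more above each of the vector and GFP libraries. By that rule 31 of 40 members were higher in the library labelled miR-105, where 15.3% of all genes compared were, and 0 were lower, where 18.5% of all genes were. The median log2 fold of the members over both controls was 3.08 after adding 0.5 CPM, an 8.46-fold difference, while the median of all genes was 0.01. In the library labelled MYC, 9 of 40 members (22.5%) were higher against a background of 9.59%, and 0 were lower against 11.3%. Their median log2 fold there was 0.21 beside 0.04 for all genes. The control libraries differed from each other for 4 members: 1 was higher in GFP than in vector (background 4.13%) and 3 were lower (background 2.36%), with a median of −0.20 beside 0.03. The 1 was INCENP and the 3 were NUF2, BIRC5 and SPC25, of which SPC25 rests on 2 reads in vector and 1 in GFP, a ratio of 0.334 (0.00566 to 6.42) that includes equality. Set directly against the library labelled MYC, the library labelled miR-105 had 30 members higher (background 19.8%) and 0 lower (background 21.1%), with a median of 2.58. These comparisons share libraries and are not independent of each other. Ranges in parentheses below are exact 95% intervals of a ratio or level that cover counting error only, since the spread between cultures cannot be read from 1 library.

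**Figure D2:**
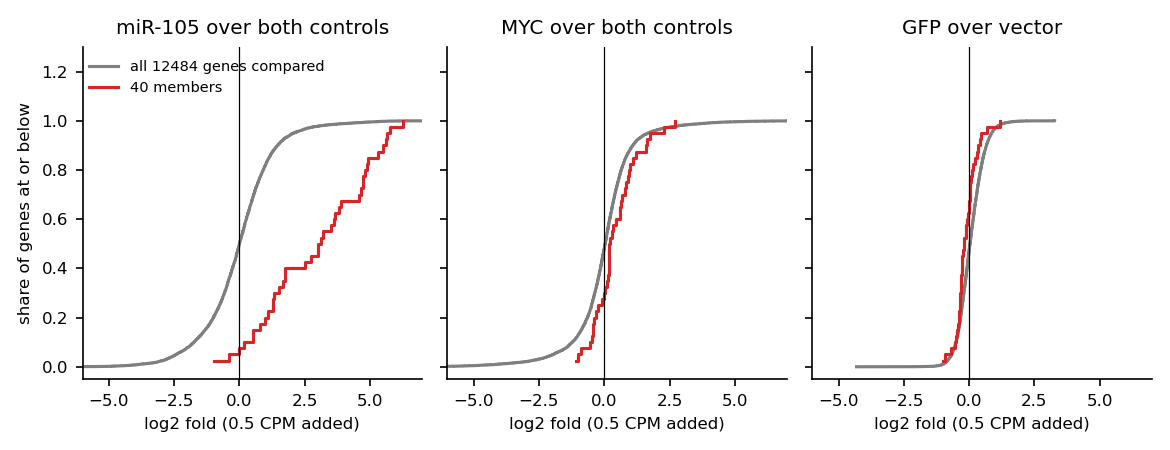
Cumulative share of genes against log2 fold (0.5 CPM added) for the 40 members in red and all 12484 genes compared in grey, in 3 comparisons. The red line lies far to the right in the library labelled miR-105 (median 3.08 against 0.01), slightly to the right in the library labelled MYC (0.21 against 0.04) and slightly to the left for GFP over vector (−0.20 against 0.03).

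The members did not move by a common factor. Ordered by the smaller of their folds over the controls in the library labelled miR-105, 13 members were at least 20-fold higher: BIRC5, BUB1B, CDCA8, CENPA, CENPF, CENPI, CENPM, MAD2L1, NDC80, NUF2, SKA1, SKA3 and SPC25. Another 5 lay between 10-fold and 20-fold, 6 between 5-fold and 10-fold, and 7 between 2-fold and 5-fold. The remaining 9 did not reach 2-fold over both: CENPB, CENPO, MAD1L1, NSL1, PMF1 and SKA2 lay above both controls by less than that over at least one of them, and CENPBD1, CENPC and CENPT were at or below the level of at least one control. Just inside the threshold stood MIS12 at 2.25-fold over GFP and BUB3 at 2.35-fold over vector, and just outside it NSL1 at 1.94-fold and SKA2 at 1.87-fold over vector. The following accounts go from the DNA outwards.

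**Figure D3:**
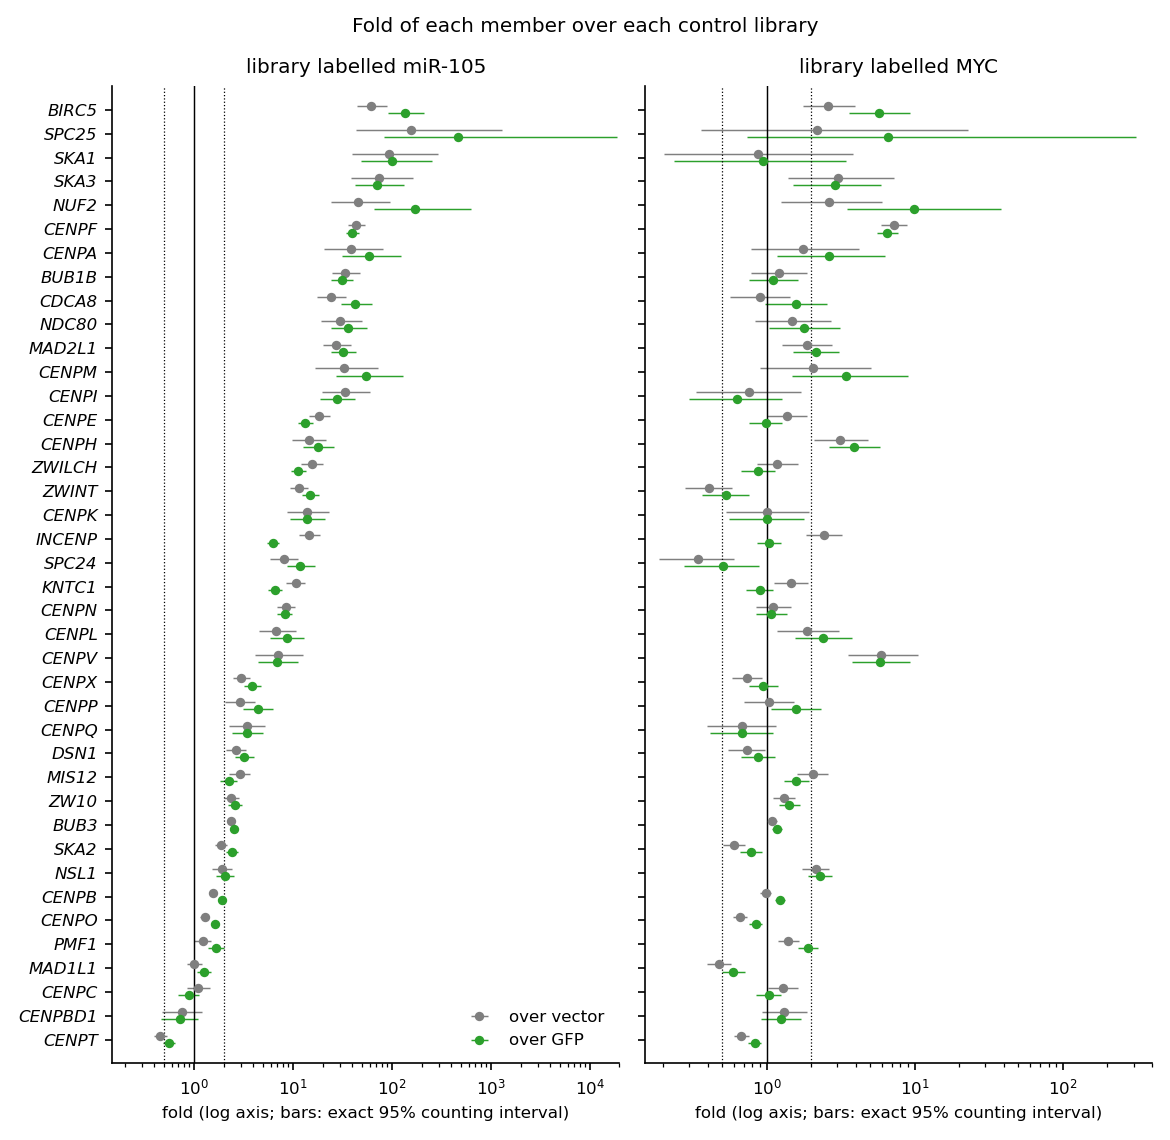
Fold of each member over the vector library (grey) and over the GFP library (green) in the libraries labelled miR-105 (left) and MYC (right), on log axes that differ between the panels. Bars are exact 95% counting intervals and dotted lines mark 2-fold; the left panel runs from SPC25, SKA1, SKA3 and BIRC5 at 62.1-fold and more over vector down to CENPT at 0.458-fold, while most genes of the right panel lie between the dotted lines.

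At the centromeric chromatin, the histone variant itself differed most. CENPA, which replaces histone H3 in centromeric nucleosomes, stood at 1.08 CPM in vector, 0.722 in GFP, 42.2 in miR-105 and 1.90 in MYC, that is 10, 10, 269 and 20 reads. Its level in the library labelled miR-105 was 39-fold (20.9 to 82.3) above vector and 58.4-fold (31.3 to 123.2) above GFP, and no other library came near it. CENPV, which is needed for the organisation of pericentromeric chromatin, stood at 1.84, 1.88, 13 and 10.9 CPM. It was thus high in both construct libraries, 7.08-fold (4.17 to 12.7) over vector under the miR-105 label and 5.93-fold (3.55 to 10.5) under the MYC label, and the ratio between those libraries was 1.19 (0.889 to 1.6). CENPB, the protein that binds the CENP-B box of alpha satellite DNA, was already abundant at 111.5 CPM in vector and 89.1 in GFP, and stood at 173 in miR-105 and 109.5 in MYC. That is 1.55-fold (1.42 to 1.69) and 1.94-fold (1.79 to 2.11) above the controls under the miR-105 label, under the 2-fold line. CENPBD1, named for its CENP-B-like DNA-binding domain, had 6.16, 6.50, 4.71 and 8.06 CPM, and its interval included equality in each comparison with a control.

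Within the CCAN, 9 of 12 subunits were higher in the library labelled miR-105 (15.3% of all genes compared). In the library labelled MYC 2 of 12 were (9.59% of all genes compared). CENPM and CENPI had the largest folds. CENPI, which with CENP-H, CENP-K and CENP-M forms one subcomplex of this network, stood at 1.62 CPM in vector, 1.95 in GFP, 54.1 in miR-105 and 1.23 in MYC. Its 3 lowest libraries overlapped within counting error, and the library labelled miR-105 was 33.4-fold (19.9 to 60.3) and 27.7-fold (18.7 to 42.7) above the controls. CENPM stood at 0.973, 0.578, 31.7 and 1.99 CPM, 32.6-fold (16.8 to 72.2) and 54.8-fold (27.3 to 128.7) above vector and GFP under the miR-105 label. CENPH stood at 3.24, 2.60, 46.9 and 10.1 CPM, so that it was high in miR-105 at 14.5-fold (9.92 to 21.8) over vector and intermediate in MYC at 3.13-fold (2.07 to 4.86). CENPK, the other partner in that subcomplex, stood at 2.16, 2.17, 30.1 and 2.18 CPM, and its vector, GFP and MYC values were nearly equal.

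Subunits of the other CCAN groups were less uniform. CENPN, which together with CENP-L contacts the CENP-A nucleosome, stood at 10.7, 11.1, 91.1 and 11.9 CPM, 8.51-fold (6.87 to 10.6) over vector and 8.25-fold (6.89 to 9.92) over GFP in the library labelled miR-105. CENPL stood at 3.03, 2.38, 20.7 and 5.69 CPM, a 6.84-fold and an 8.68-fold difference. In the group of CENP-O, CENP-P, CENP-Q and their partners, CENPQ stood at 3.78, 3.76, 13 and 2.56 CPM and CENPP at 5.62, 3.68, 16.3 and 5.78 CPM. Both were higher under the miR-105 label, by 3.44-fold (2.29 to 5.26) and 2.90-fold (2.06 to 4.13) over vector. CENPO, of the same group, had 86.6, 67.8, 111.4 and 57 CPM, which is 1.29-fold (1.16 to 1.42) and 1.64-fold (1.49 to 1.81) above the controls in miR-105 and 0.658-fold (0.591 to 0.732) and 0.840-fold (0.757 to 0.932) of them in MYC. The partners within this group therefore did not share one profile.

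CENPC, the subunit that bridges the CENP-A nucleosome and the MIS12 complex, was the flattest member: 14.2 CPM in vector, 17.7 in GFP, 15.7 in miR-105 and 18.2 in MYC. The value in the library labelled miR-105 lay between the controls, at 1.11-fold (0.845 to 1.45) of vector and 0.886-fold (0.695 to 1.12) of GFP. CENPT, which forms the second bridge by recruiting NDC80 complexes, was the only member whose level in that library lay below both controls by more than counting error. It stood at 79, 64.5, 36.2 and 53.4 CPM, 0.458-fold (0.394 to 0.532) of vector and 0.562-fold (0.484 to 0.65) of GFP, so it passed 2-fold against vector alone. Its histone-fold relative CENPX, which pairs with CENP-S, went the other way with 16.9, 13.1, 51.1 and 12.4 CPM, 3.03-fold (2.5 to 3.69) over vector. Exons of CENPT and of CENPO lie over exons of genes on the opposite strand that are also in the table (NUTF2, THAP11 and TSNAXIP1 for CENPT; ADCY3 and PTRHD1 for CENPO). Whether the reads were counted by strand is not given in the sources used here, and reads of such pairs cannot be told apart.

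Some of the largest ratios were those of outer kinetochore genes. The NDC80 complex is the rod whose NDC80 and NUF2 heads bind microtubules and whose SPC24 and SPC25 ends dock on the inner kinetochore. All 4 of its genes were higher in the library labelled miR-105 (15.3% of all genes compared), with a median log2 fold of 5.11. NDC80 stood at 2.16 CPM in vector, 1.81 in GFP, 65.6 in miR-105 and 3.22 in MYC, 30.3-fold (19.4 to 50.2) and 36.3-fold (24.2 to 56.7) above the controls. NUF2 stood at 1.08, 0.289, 49.4 and 2.84 CPM, with 10, 4, 315 and 30 reads. It was 45.7-fold (24.5 to 96.2) above vector and 171-fold (66.1 to 631.4) above GFP under the miR-105 label, compared with 2.63-fold (1.25 to 6.03) and 9.84-fold (3.47 to 38.5) above them under the MYC label. The controls themselves differed for NUF2, which was 3.74-fold (1.08 to 16.3) lower in GFP than in vector.

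SPC25 had the fewest control reads of any member, 2 in vector and 1 in GFP, against 217 in miR-105 and 5 in MYC. Its ratios of 157.4 (43.1 to 1308) over vector and 471.2 (83.7 to 18694) over GFP are accordingly wide, and its call as higher in MYC, at 2.19 (0.359 to 23) and 6.56 (0.734 to 310.4), rests on 5 reads with intervals that include equality. SPC24, its partner in the complex, stood at 4.97, 3.40, 40.3 and 1.71 CPM. It was 8.11-fold (5.9 to 11.3) above vector in the library labelled miR-105, but in the library labelled MYC it was lower than both controls, at 0.343-fold (0.187 to 0.603) and 0.503-fold (0.275 to 0.882). Direct comparison of those libraries gave 23.6-fold (14.6 to 40.5). Exons of NUF2 lie over RGS5 on the opposite strand.

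The MIS12 complex, the hub that connects the inner kinetochore with KNL1 and NDC80, differed little beside it: its median log2 fold was 1.15 in miR-105 and 0.76 in MYC. DSN1 stood at 12.2, 10.2, 32.8 and 8.91 CPM, 2.68-fold (2.12 to 3.4) above vector and 3.22-fold (2.59 to 4.01) above GFP under the miR-105 label. MIS12 stood at 10.9, 14.1, 31.7 and 22.3 CPM, the highest in miR-105 and the next in MYC. NSL1 at 14.2, 13.2, 27.4 and 30.3 CPM was the member counted as higher in the library labelled MYC and not in miR-105. Its folds were 2.14 (1.74 to 2.65) and 2.29 (1.91 to 2.77) under the MYC label and 1.94 (1.54 to 2.45) and 2.08 (1.68 to 2.57) under the miR-105 label, and the ratio between those libraries, 0.905 (0.748 to 1.09), included equality. PMF1, the fourth subunit, stood at 25.6, 18.9, 31.5 and 35.8 CPM, also with the highest value in MYC, and shares exons with the read-through gene PMF1-BGLAP.

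ZWINT, which binds KNL1 and recruits the RZZ complex, stood at 10.5 CPM in vector, 8.02 in GFP, 120.5 in miR-105 and 4.27 in MYC. It was high in one construct library and lowest in the other: 11.5-fold (9.29 to 14.3) and 15-fold (12.3 to 18.5) above the controls under the miR-105 label, but 0.407-fold (0.279 to 0.585) and 0.532-fold (0.368 to 0.759) of them under the MYC label. KNL1 itself, the scaffold on which BUB1 and BUB3 gather, stood at 1.73, 2.53, 151.2 and 2.94 CPM under its current symbol, 87.4-fold (53.5 to 153.5) above vector. The shugoshins, which protect centromeric cohesion, had 0.865, 0.578, 29.2 and 1.90 CPM for SGO1 and 2.59, 3.54, 96 and 3.60 CPM for SGO2. With these 3 renamed genes added, 34 of 43 were higher in the library labelled miR-105 (15.3% of all genes compared). In the library labelled MYC 10 of 43 were (9.59% of all genes compared). The 3 genes were added after their values had been seen.

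The SKA complex binds NDC80 and holds the kinetochore on shrinking microtubule ends. SKA1 stood at 0.541 CPM in vector, 0.506 in GFP, 51 in miR-105 and 0.474 in MYC, from 5, 7, 325 and 5 reads. The 3 low libraries could not be separated, and the library labelled miR-105 was 94.3-fold (40 to 292.4) and 100.8-fold (48.4 to 252.7) above the controls. SKA3 stood at 0.973, 1.01, 72.3 and 2.94 CPM, 74.3-fold (38.8 to 163.5) above vector under the miR-105 label and 3.02-fold (1.4 to 7.21) under the MYC label. SKA2, the third subunit, was abundant in the controls at 36.1 and 27.7 CPM and stood at 67.6 in miR-105 and 21.7 in MYC. Its folds of 1.87 (1.62 to 2.17) and 2.44 (2.12 to 2.8) left it under the threshold, so a complex whose proteins act together had mRNAs whose folds over vector ranged from 1.87 to 94.3.

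The RZZ complex brings dynein and MAD1 to unattached kinetochores. Its 3 genes were all higher in the library labelled miR-105 (15.3% of all genes compared) and none in the library labelled MYC (9.59%). KNTC1, which encodes the ROD subunit, stood at 10.1, 16.3, 107.1 and 14.6 CPM, and ZWILCH at 7.78, 10.5, 120.5 and 9.20. ZW10, which also serves in membrane traffic outside mitosis, had the smallest span, with 23.7, 21.8, 56.9 and 31 CPM and 2.40-fold (2.03 to 2.86) over vector. ZWILCH shares exon sequence with RPL4 on the opposite strand.

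In the fibrous corona, the outermost layer of an unattached kinetochore, CENPF gave the most miR-105 reads of any member, 3289. This large protein, which links kinetochores with dynein regulators and the nuclear envelope, stood at 11.8 CPM in vector, 13 in GFP, 515.8 in miR-105 and 84.7 in MYC. Its order was plain, with both construct libraries above both controls: 43.8-fold (36.2 to 53.5) over vector under the miR-105 label and 7.18-fold (5.88 to 8.85) under the MYC label, and 6.09-fold (5.66 to 6.57) between them. CENPF was the member with the largest log2 fold in the library labelled MYC, 2.73. The kinesin CENPE, which carries chromosomes to the spindle equator, stood at 7.68, 10.6, 142.1 and 10.4 CPM, and its MYC value lay within the range of the controls.

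Among the spindle checkpoint genes, BUB1B and MAD2L1, whose products BUBR1 and MAD2 are parts of the complex that inhibits CDC20, were higher by a wide margin. BUB1B stood at 4.32, 4.70, 146.6 and 5.21 CPM, 33.9-fold (24.7 to 47.8) and 31.2-fold (24.3 to 40.8) above the controls in the library labelled miR-105 and 1.21-fold (0.788 to 1.86) and 1.11-fold (0.761 to 1.62) in the library labelled MYC. MAD2L1 stood at 4.43, 3.83, 122.5 and 8.25 CPM, 27.6-fold (20.2 to 38.8) above vector under the miR-105 label. BUB3, which also acts outside the checkpoint, was abundant throughout at 112.8, 104.4, 264.9 and 122.6 CPM, and 2.35-fold (2.17 to 2.54) above vector. MAD1L1, the anchor of MAD2 at kinetochores, was not higher under the miR-105 label at 1.01-fold (0.848 to 1.2) of vector, since it stood at 34.6, 27.5, 35 and 16.4 CPM. It was lowest in the library labelled MYC, at 0.474-fold (0.392 to 0.572) of vector and 0.596-fold (0.495 to 0.715) of GFP. BUB1B shares exons with the read-through gene BUB1B-PAK6.

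The chromosomal passenger complex corrects faulty attachments through its kinase Aurora B. BIRC5, which encodes its subunit survivin, had the largest log2 fold of the 40 genes in miR-105, 6.25 with 0.5 CPM added. BIRC5 stood at 3.78 CPM in vector, 1.73 in GFP, 235.1 in miR-105 and 9.86 in MYC. That is 62.1-fold (44.5 to 89.5) and 135.6-fold (90.8 to 212.3) above the controls under the miR-105 label, compared with 2.61-fold (1.76 to 3.94) and 5.69-fold (3.62 to 9.27) under the MYC label. By the plain ratio over vector, SPC25, SKA1 and SKA3, with few control reads, ranked above it. CDCA8, or borealin, stood at 4.32, 2.46, 105.4 and 3.89 CPM, and was higher in miR-105 alone. INCENP, the scaffold of the complex, was the gene on which the controls were farthest apart in the upward direction: 8 CPM in vector and 18.6 in GFP, beside 117 in miR-105 and 19.3 in MYC. GFP was 2.33-fold (1.79 to 3.06) above vector, so the MYC library was 2.42-fold (1.84 to 3.2) above vector and 1.04-fold (0.859 to 1.25) of GFP, and the miR-105 library was 14.6-fold (11.5 to 18.8) above one control and 6.28-fold (5.44 to 7.26) above the other.

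Per kilobase of annotated exon, which allows a rough comparison of levels between genes, the order of the members differed between libraries. The lengths merge the exons of several transcripts of a gene, and which transcripts were expressed is not known. In the vector library the highest were CENPB at 39.2 CPM per kb, CENPT at 33.2 and PMF1 at 21.5, and BIRC5 stood at 1.19. In the library labelled miR-105 the highest were BIRC5 at 73.8 CPM per kb, CENPB at 60.9, ZWINT at 58.4 and CENPX at 54.6, and CENPT stood at 15.2. Subunits of the NDC80 and SKA complexes lay closer together in that library: NDC80, NUF2, SPC24 and SPC25 stood at 30.2, 24.4, 17.4 and 25.1 CPM per kb in miR-105, against 0.995, 0.534, 2.15 and 0.160 in vector. SKA1, SKA2 and SKA3 stood at 17.3, 22.6 and 24.8 in miR-105, against 0.183, 12.1 and 0.333 in vector. In the MYC library SKA1, SKA2 and SKA3 were at 0.161, 7.25 and 1.01.

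Of the 9 members counted as higher in the library labelled MYC, 8 were also higher in miR-105: BIRC5, CENPF, CENPH, CENPM, CENPV, NUF2, SKA3 and SPC25. The other was NSL1. CENPM stood at 1.99 CPM in MYC, 2.05-fold (0.898 to 5.07) above vector, so that its interval, like that of SPC25, included equality against that control. Only CENPF and CENPV were at least 4-fold above both controls in the library labelled MYC, where 3.69% of all genes were. When the vector and GFP libraries were taken as 1 control group, edgeR's quasi-likelihood test at an adjusted p under 0.05 called 33 members higher and 1 lower in miR-105, where 19.8% and 19.3% of all genes were called, and 7 higher and 0 lower in MYC, where 10.9% and 11.4% were. This test has 1 residual degree of freedom and compares these libraries, not the constructs. The lower call was CENPT, the 6 members without a call in miR-105 were CENPB, CENPBD1, CENPC, CENPO, MAD1L1 and PMF1, and CENPM and SPC25 were not called in MYC.

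Partner genes that are no members were read from lists, beside the 15.3% of all genes compared that were higher and the 18.5% that were lower in miR-105. Of 7 genes for the deposition of CENP-A, 5 were higher in the library labelled miR-105 and 0 lower, and the median log2 fold was 1.43. HJURP, the chaperone that delivers CENP-A to the centromere, stood at 2.59 CPM in vector, 1.01 in GFP, 84.7 in miR-105 and 1.80 in MYC, 32.6-fold and 83.7-fold above the controls. OIP5, a subunit of the MIS18 complex that prepares the centromere for it, stood at 0.649, 0.722, 23.4 and 2.18 CPM, whereas RBBP4, a histone chaperone with many other partners, had a log2 fold of 0.48. Of 21 kinetochore kinases and regulators, 16 were higher and 0 lower, with a median of 4.39, led by BUB1, the checkpoint kinase that docks on KNL1, at 2.16, 2.24, 207.8 and 4.65 CPM. PLK1, a mitotic kinase, and CDC20, the activator of anaphase that the checkpoint holds back, had log2 folds of 5.67 and 5.65, and the microtubule-binding CLASP1 had −1.06. Of 15 dynein and dynactin genes, whose motor also serves non-dividing cells, 0 were higher and 0 lower, with a median of 0.05.

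Other genes of dividing cells were also higher in the miR-105 library, in a larger share than the 77.5% of the members and the 15.3% of all genes compared. Of 18 mitotic cyclins and kinases 17 were higher, with a median log2 fold of 4.67, and of 12 mitotic kinesins other than CENPE all were, with a median of 4.70. Of 38 DNA replication genes 36 were higher, with a median of 2.77. These lists share genes such as BUB1 and PLK1 with the regulators above. In the library labelled MYC the same lists had 4, 2 and 2 genes higher (9.59% of all genes compared) and medians of 0.61, 0.16 and 0.18. Among 12 housekeeping genes 2 were higher and 0 lower in miR-105, with a median of 0.27. With 1 library per construct no test separates the members from these lists.

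**Figure D4:**
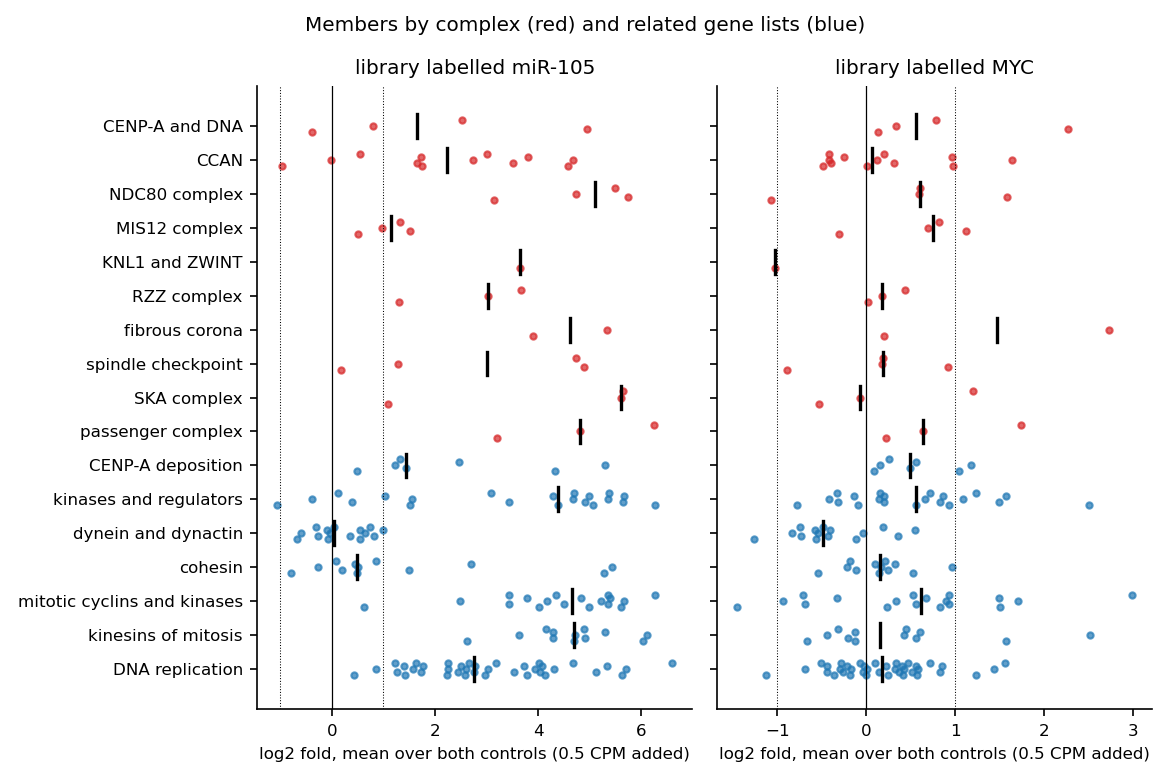
Log2 fold over both controls (0.5 CPM added) of every gene, by complex for the members (red) and by list for related genes (blue), in the libraries labelled miR-105 and MYC. Black bars are medians and dotted lines mark 2-fold; in the left panel the NDC80, SKA and passenger genes and the kinesins centre between 4.70 and 5.61, the MIS12 genes at 1.15 and the dynein genes at 0.05.

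Promoter sequence is shown because many members with large folds share a short element in it. Genes of G2 and mitosis are known to be controlled through cell cycle homology regions (CHR), with the core TTTGAA or TTCGAA, often near CCAAT boxes, which bind NF-Y. RefSeq windows from 250 bases before to 50 after the first-listed start (GRCh38.p14) were held for 33 of 40 members, and BIRC5, BUB3, CENPBD1, CENPH, CENPL, CENPM and KNTC1 had none. The files' own build is hg19, and no coordinates were carried between builds. Both strands were searched, and a CCAAT box can adjoin a CHR core. The 120 bases before the start follow for 8 members, chosen after their folds were known, as examples of promoters with and without a core. By that choice, those printed with a core had log2 folds of 3.20 to 4.94 in miR-105, and those without one 1.32 or less. Not printed were CENPC and CENPO, with a core and log2 folds of −0.01 and 0.54. CENPI and CENPE, without one and at 4.58 and 3.90, were not printed either. Over the 33 members the separation was not as clean, since 11 of the 17 without a core were higher. Capitals mark CHR cores (TTTGAA, or TTCAAA on the other strand) and CCAAT boxes (CCAAT or ATTGG).
CDCA8, chr1:37692396-37692515, plus strand: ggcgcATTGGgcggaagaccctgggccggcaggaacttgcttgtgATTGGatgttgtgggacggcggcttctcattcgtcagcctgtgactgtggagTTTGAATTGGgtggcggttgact
CENPA, chr2:26785936-26786055, plus strand: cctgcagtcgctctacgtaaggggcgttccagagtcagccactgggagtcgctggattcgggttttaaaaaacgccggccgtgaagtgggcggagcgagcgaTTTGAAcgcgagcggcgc
BUB1B, chr15:40160949-40161068, plus strand: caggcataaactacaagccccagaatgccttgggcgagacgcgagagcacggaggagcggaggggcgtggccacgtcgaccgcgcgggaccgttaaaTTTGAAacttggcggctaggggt
INCENP, chr11:62123891-62124010, plus strand: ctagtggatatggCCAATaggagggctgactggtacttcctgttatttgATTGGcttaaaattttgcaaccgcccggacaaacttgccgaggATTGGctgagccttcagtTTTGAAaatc
ZWINT, chr10:56361260-56361379, minus strand: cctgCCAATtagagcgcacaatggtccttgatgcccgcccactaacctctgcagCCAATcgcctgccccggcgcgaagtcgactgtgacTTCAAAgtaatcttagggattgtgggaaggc
MIS12, chr17:5486254-5486373, plus strand: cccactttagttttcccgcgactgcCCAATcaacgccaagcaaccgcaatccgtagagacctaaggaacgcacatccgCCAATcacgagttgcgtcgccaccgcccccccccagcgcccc
PMF1, chr1:156212887-156213006, plus strand: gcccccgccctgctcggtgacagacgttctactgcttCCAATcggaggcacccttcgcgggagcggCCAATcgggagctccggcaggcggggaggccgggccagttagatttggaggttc
CENPT, chr16:67847694-67847813, minus strand: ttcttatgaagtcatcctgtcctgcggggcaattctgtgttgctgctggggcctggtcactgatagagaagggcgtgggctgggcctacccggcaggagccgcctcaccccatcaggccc

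A CHR core lay in the windows of 16 of 33 members, or 48.5%, against 16.6% of the 27305 genes with a window and 11.2% of the 9674 of them that were compared here. When every listed start of a gene was searched, these shares were 48.5%, 19.5% and 15.6%. Of the 16 members with a core, 14 were higher in the miR-105 library (CENPC and CENPO were not), and their median log2 fold was 4.78. Of the 17 without one, 11 were higher and the median was 1.66. Among all genes compared 15.3% were higher. The share among all compared genes with a core is not given here, and a link between core and fold was not tested. In the library labelled MYC the medians were 0.52 and 0.01. Most cores lay close to the start, as in BUB1B and CDCA8 with the first base at −23, CENPA at −18 and INCENP at −10. From 60 bases before to 50 after the start, limits set after the positions had been seen, 14 of 33 members held one against 3.36% of the genes compared. CENPI and CENPE had large folds with no core in their windows.

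CCAAT boxes lay in 18 of 33 windows, or 54.5%, against 35.7% of all genes with a window and 36.6% of those compared. The median log2 fold in miR-105 was 3.17 for members with a box and 2.52 for members without one. MIS12 and PMF1, printed above, hold 2 boxes each and no core in those bases, with folds over vector of 2.90 and 1.23. The E-box CACGTG, the sequence bound by MYC with MAX, was found for 3 members, CENPE, CENPF and CENPP, or 9.09% against 10% of the genes compared. The E2F sequences TTTCGCGC and TTTGGCGC were found in 0 of 33 windows, against 1.98% of the genes compared. A match is a run of letters and not a measured binding site.

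**Figure D5:**
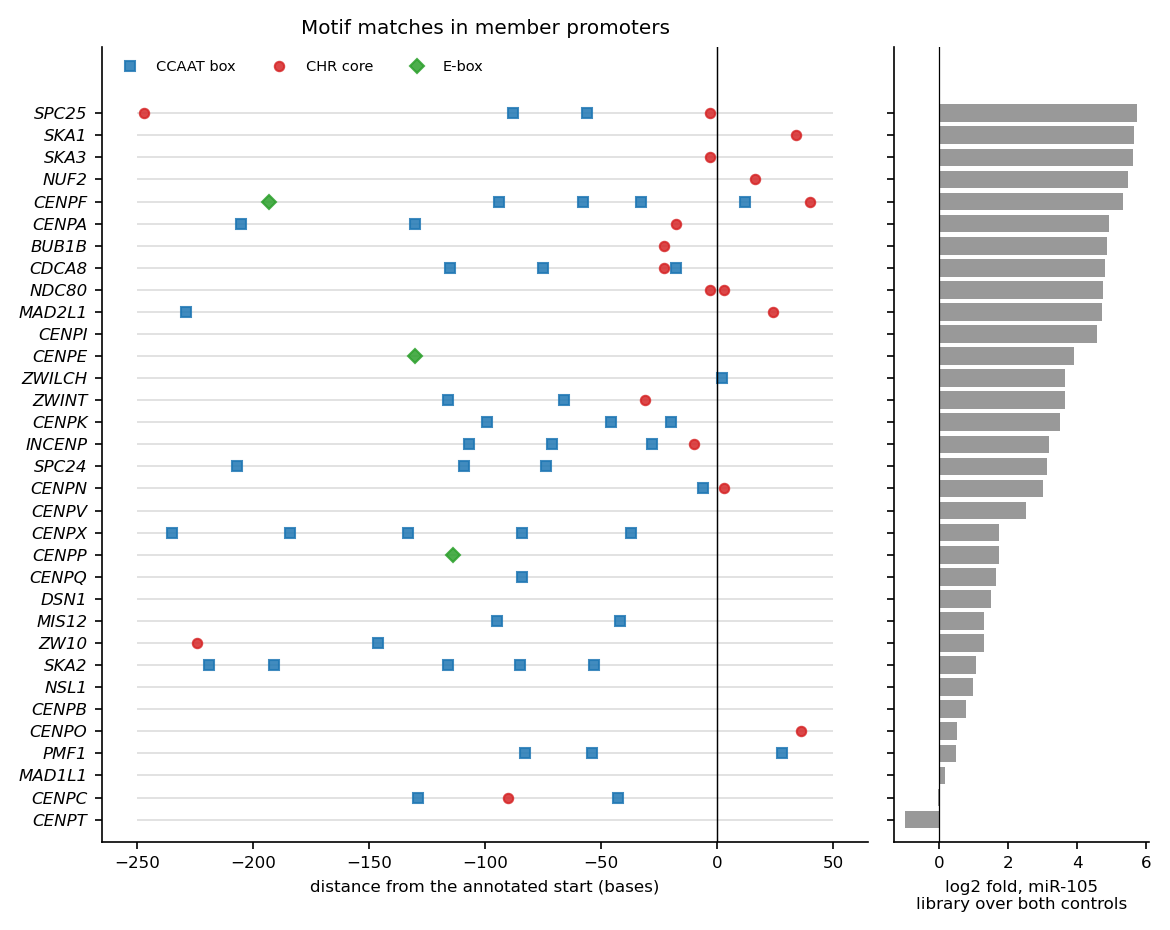
Positions of CCAAT boxes, CHR cores and E-boxes in the windows of 33 members (left, distance of the first base from the annotated start) beside each gene's log2 fold in the library labelled miR-105 (right), ordered by that fold. Red points cluster near the start among the upper rows, and the blue squares spread over genes of all folds. Of the 16 genes with a core 14 were at least 2-fold higher (15.3% of all genes compared).

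The microRNA of the construct was set beside the 3′ UTRs of the members, a search added after their folds were known. The mature miR-105-5p (RefSeq, GRCh38.p14, chrX:152392265-152392287, minus strand) is printed with its seed, bases 2 to 8, in capitals, followed by each stretch of a member's UTR that matches it, with the match GCATTTG in capitals.
miR-105-5p: uCAAAUGCucagacuccuguggu
CENPC: gtttcttacttGCATTTGccacattt
CENPH: aatacttctgtGCATTTGtctgtcca
CENPN: tagccgttgtgGCATTTGagatgaca
MAD2L1: cctagttcagaGCATTTGataccgta
A match stood in 4 of 40 members, 10%, against 15% of the 12135 compared genes with an annotated 3′ UTR (GENCODE release 29, 1 transcript per gene). CENPH, CENPN and MAD2L1 were higher in the library labelled miR-105 and hold a match, at 14.5-fold, 8.51-fold and 27.6-fold over vector, and CENPC stood at 1.11-fold. CENPT, below both controls in that library, held none.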

How the data were processed

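Poly(A) RNA of 4 MCF10A cultures, 1 library each, was read from 1 table of gene symbols. TopHat2, edgeR and hg19 stand in the submitters' processing notes without versions; read counter, annotation and strand setting were not given in the sources used here. As deposited, the values were a depth-adjusted signal with the form of edgeR pseudo-counts, which the authors' use of edgeR, per the labels, would give. Inverting that adjustment at a common dispersion of 0.0553, with vector and GFP as 1 group, returned whole numbers for 100% of 18859 values per library, within a relative tolerance of 1e-05. The design had assumed either unit, and the recovered reads were used. Of the lines, 19 repeated another and were dropped, leaving 18840 genes.

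From the reads, CPM was computed with TMM factors of 1.012, 0.9871, 0.9295 and 1.077 (vector, GFP, miR-105, MYC; edgeR 4.0.16, R 4.3.3). Genes averaging 1 CPM or more were compared. Log2 folds were taken on CPM plus 0.5, so differences of low genes are understated, and are means over both controls; other folds are plain CPM ratios, and a call required 2-fold against both controls. Intervals are exact Poisson or Clopper-Pearson at 95% (scipy 1.17.1), and cover counting error only, as the reads carry no molecular identifiers. The edgeR test and DESeq2 1.42.0 were alternatives, and both scripts were tested on simulated data. Exon lengths, exon overlaps and UTRs came from GENCODE release 29. Members were named if they passed the filter; from the other lists the 3 largest and 2 smallest log2 folds of a comparison could be named, with HJURP, BUB1, FOXM1, MYBL2, CDKN1A and MYC. Members, lists and naming rule were chosen with earlier results of these data known. Chosen after these values had been seen were the renamed genes, the members that share exons, the unscaled values, the UTR search, the narrow motif window and the promoters printed. The naming of NFYA and NFYC was also chosen then. Motifs were summarised in 10 ways, besides the search of every listed start. No columns were left unassigned. One overlapping gene is not reported here.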

Additional observations from a re-analysis of the deposited data

How the results depend on the processing

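No called value changed direction, and 117 of the 131 recomputed counts and medians stayed within the limit set for them (1.5 times for a count, the counting interval of a typical member for a median). Each count below is followed in parentheses by the share of all genes past the same rule. With a 1.5-fold threshold 34 members were higher (24.6%) and 1 lower (26%) in miR-105, 13 were higher (17.3%) and 3 lower (18%) in MYC, and 2 were higher (14.2%) and 6 lower (8.42%) in GFP than in vector. Between miR-105 and MYC, 33 were higher (31%) and 1 lower (30.3%) at that threshold. With 4-fold, 24 were higher in miR-105 (5.08%) and 2 in MYC (3.69%), and between the controls 0 were higher (0.529%) and 0 lower (0.585%). Against the vector library alone 31 were higher (20%) and 1 lower (21.7%) in miR-105, and 11 were higher (13.9%) and 3 lower (13.6%) in MYC, the 3 being MAD1L1, SPC24 and ZWINT. The edgeR test called 1 lower (19.3%) in miR-105, and DESeq2 called 28 higher (12.9%) and 0 lower (14%) in miR-105 and 4 higher (5.63%) and 0 lower (8.43%) in MYC. Leaving out the 14 members that share exon sequence with another gene of the table left 26. Of these, 20 were higher in miR-105 (15.3%), with a median log2 fold of 3.58. Library totals in place of TMM factors moved the median of all genes from 0.05 to −0.15 between the libraries labelled miR-105 and MYC, from 0.01 to −0.09 in miR-105 and from 0.04 to 0.14 in MYC. Of the values for single members 942 stayed within their limits and 18 did not; most of these came from using one control alone, as for INCENP, whose log2 fold in MYC was 1.22 over vector and 0.05 over GFP. Depth limits CENPA, CENPM, NUF2, SKA1 and SPC25, which had 1 to 10 reads in each control library. No paired analysis was possible because each construct had 1 library.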

Other observations

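Regulators of mitotic transcription are known to act through the DREAM and MYB-MuvB complexes, which share LIN proteins and bind CHR elements, and through the E2F family. Of 22 such genes 11 were higher and 2 lower in the library labelled miR-105 (15.3% and 18.5% of all genes compared), with a median log2 fold of 1.13. In the library labelled MYC 1 was higher and 2 lower (9.59% and 11.3% of all genes compared). MYBL2, the MYB protein that turns the repressing complex into an activating one, stood at 3.03 CPM in vector, 2.09 in GFP, 292.5 in miR-105 and 2.84 in MYC. FOXM1, its partner factor in G2, stood at 13.1, 8.81, 260 and 10.9 CPM, and E2F2, an activating E2F, had a log2 fold of 5.09. The vector, GFP and MYC levels of MYBL2 and FOXM1 lay close together, and the library labelled miR-105 stood apart. CDKN1A, which encodes the CDK inhibitor p21, stood at 503, 516.1, 204.2 and 114.5 CPM, so it was lower than in both controls in both construct libraries, and lowest in the library labelled MYC. NFYB, a subunit of the factor that binds CCAAT boxes, stood at 434.4, 389.1, 29.8 and 46.1 CPM, low in both construct libraries. Its partner subunits were not lower there: NFYA stood at 23.7, 35.4, 59.4 and 50.1 CPM and NFYC at 35.7, 30.3, 40.8 and 41.1.

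Cohesin, the ring that holds sister chromatids together until anaphase, had 4 of 12 genes higher and 0 lower in the library labelled miR-105. The shares of all genes compared were 15.3% and 18.5%, and the median log2 fold of the 12 was 0.49. In the library labelled MYC 0 were higher and 0 lower (9.59% and 11.3% of all genes compared). ESCO2, the S-phase acetyltransferase of the ring, had a log2 fold of 5.44, CDCA5, or sororin, 5.27 and the core subunit SMC1A 2.69. ESCO1 and MAU2, a loading factor, had −0.26 and −0.80.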
